A study of Mus musculus with 102 samples.

Results

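The splicing factors SRSF1 and SRSF2 were mapped on the chromatin of mouse embryonic stem (ES) cells by chromatin immunoprecipitation and sequencing (ChIP-seq). The members described here are the regions of a deposited table that carry an entry for SRSF1, for SRSF2 or for both. They number 44071 of 67697 regions, which is 65.1% of the table. SRSF1 was listed at 27641 regions (40.8%) and SRSF2 at 36524 regions (54%). Both were listed at 20094 regions (29.7%), SRSF1 without SRSF2 at 7547 regions (11.1%), SRSF2 without SRSF1 at 16430 regions (24.3%), and neither at 23626 regions (34.9%). The lowest entry was a log2 enrichment of 0.585, a fold of about 1.5. How entries were chosen is not given in the sources used here. "Alone" therefore says that the other factor had no entry and not that it was absent.

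SRSF1 and SRSF2 belong to the SR proteins, which bind RNA through RNA recognition motifs and carry a domain rich in arginine and serine. They bind exonic enhancer sequences in nascent transcripts, help to recruit the spliceosome to splice sites, and are best known as splicing factors. SR proteins also associate with the phosphorylated tail of RNA polymerase II, and SRSF2 has been tied to the release of paused polymerase at promoters.

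The study asked which chromatin proteins share sites with histone H3 lysine 4 monomethylation (H3K4me1), a mark typical of enhancers, and which depend on it. The 129/Ola ES cells were expanded on feeder cells and passaged without feeders before crosslinking, and the labels name no edited genotype and no treatment for them. For H3K4me1 only, R1 ES cells of strain 129SV are used too, wild type and with a double catalytic-dead form of the methyltransferases MLL3/4. The labels give 2 libraries for SRSF1 and 2 for SRSF2, made with antibodies of different vendors, Invitrogen and Santa Cruz. The table gives 1 value per factor and region, so replicate spread and sequencing depth are unknown, and the reactivity of the antibodies was not tested here. Intervals of shares are Wilson 95% intervals, and these and the intervals of odds ratios and medians cover counting error only. No difference was tested, since regions of the same libraries are not replicates.

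Every region carried H3K4me1, the promoter mark H3K4me3 or both. The 67697 regions divided into 18425 with both marks, 41819 with H3K4me1 only and 7453 with H3K4me3 only. Beside the splicing factors and H3K27ac, an acetylation mark of active enhancers and promoters, 15 further factors of the same cells were used as partners. Among these the labels give a single library for SSRP1 and more for each of the others. Chromosome 11 stood apart from the other autosomes for SRSF2 and for several partners, so results are given with and without it. Without it 62257 regions remained, of which 17957 carried both splicing factors, 7239 SRSF1 alone, 14322 SRSF2 alone and 22739 neither, and SRSF1 and SRSF2 were listed at 40.5% and 51.8% of regions.

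Regions with H3K4me3 listed the splicing factors more often than regions with H3K4me1 only. Both factors together were listed at 55.8% (55.0 to 56.5) of the regions carrying both marks, at 48.6% (47.4 to 49.7) of those with H3K4me3 only, and at 14.8% (14.5 to 15.2) of those with H3K4me1 only. SRSF1 was listed at 65.5% of regions with both marks, 59.3% with H3K4me3 only and 26.7% with H3K4me1 only. For SRSF2 the same shares were 79.7%, 71.4% and 39.5%. Without chromosome 11 the shares of SRSF1 were 65.7%, 59.7% and 26.3%, and those of SRSF2 were 78.0%, 69.8% and 37.5%. The order of the classes was the same for both factors, with regions of both marks highest. The mean number of partners had the same order, at 7.77 with both marks, 6.51 with H3K4me3 only and 2.61 with H3K4me1 only. Classes were not compared at a fixed number of partners, so whether this order is particular to the splicing factors was not tested. Counting a factor only at a log2 enrichment of 1 or more, the gap between H3K4me1-only and H3K4me3-only regions was -13.1 percentage points for SRSF1 and -16.4 for SRSF2, against -32.6 and -31.9 as listed.

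The regions with a single splicing factor did not follow this order. SRSF1 alone was found at 9.76% of regions with both marks, 10.7% with H3K4me3 only and 11.8% with H3K4me1 only, and SRSF2 alone at 23.9%, 22.9% and 24.7%. The difference between classes lay in the regions with both factors and in those with neither, which made up 10.5% of regions with both marks, 17.8% of those with H3K4me3 only and 48.7% of those with H3K4me1 only. Seen from the sets, 69.1% of the regions with both factors carried H3K4me3, with or without H3K4me1, against 34.4% of regions with SRSF1 alone, 37.2% with SRSF2 alone and 13.8% with neither.

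**Figure D1:**
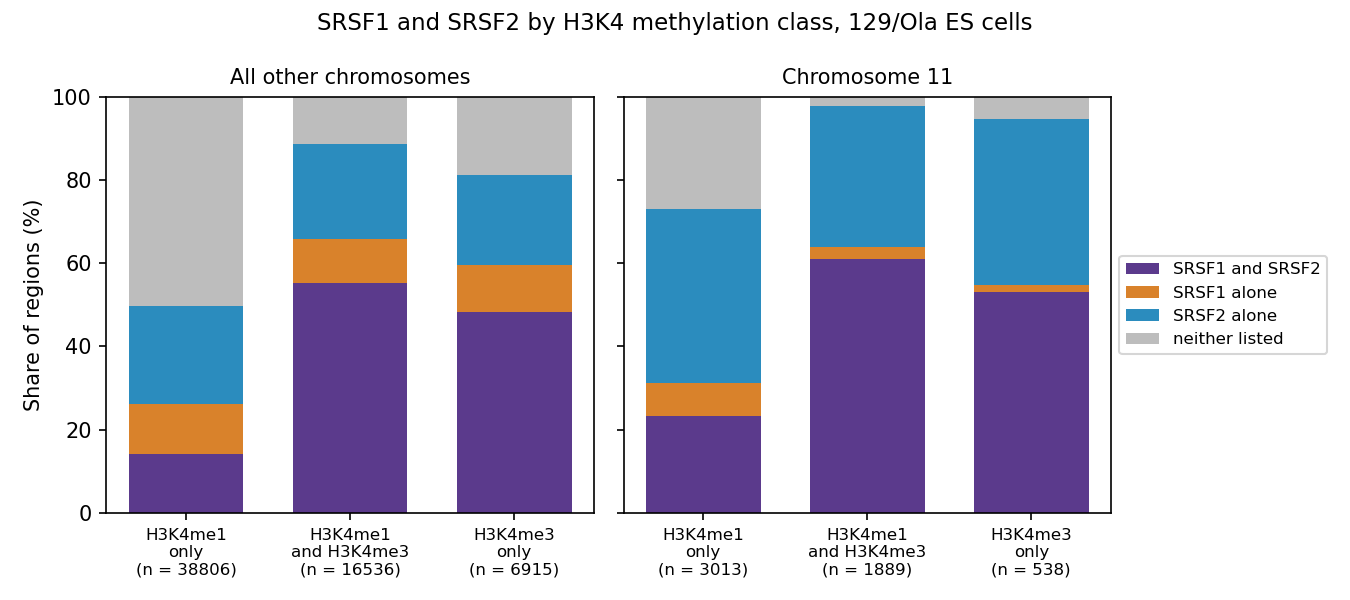
Stacked bars give the share of regions (%) with both splicing factors, SRSF1 alone, SRSF2 alone or neither in each H3K4 class, for all chromosomes but 11 (left) and for chromosome 11 (right). The part with both factors is smallest at H3K4me1 only, and on chromosome 11 the part with SRSF2 alone is larger in each class.

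The enrichments of both factors were modest. The SRSF1 values ran from 0.59 to 2.76 on the log2 scale over its 27641 regions, with a median of 0.96 and quartiles of 0.83 and 1.11. The SRSF2 values ran from 0.58 to 3.16, with a median of 0.93 and quartiles of 0.75 and 1.17. A log2 enrichment of 1 or more, a doubling, was reached at 42.3% of SRSF1 regions and 42.0% of SRSF2 regions. A value of 2 or more was reached at 40 SRSF1 regions and at 305 SRSF2 regions, 37 and 237 without chromosome 11. The upper tail of SRSF2 was thus the longer of the pair, while the medians lay close together.

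Each factor was more enriched where the other was listed too. The median SRSF2 log2 enrichment was 1.003 at regions with both and 0.86 at regions with SRSF2 alone (0.98 and 0.84 without chromosome 11). The median SRSF1 log2 enrichment was 0.97 with SRSF2 and 0.92 without it (0.96 and 0.92 without chromosome 11). The quartiles of the sets overlapped for either factor, 0.81 to 1.25 against 0.71 to 1.07 for SRSF2 and 0.85 to 1.12 against 0.79 to 1.09 for SRSF1. Over the 20094 regions with both, Spearman's rho between the values was 0.34, which ranked 83 of the 136 pairs that the 17 factors form. The median pair had a rho of 0.36 and the highest, the paired ATPases RUVBL1 and RUVBL2, a rho of 0.53. The pairs share regions and libraries, so these values are a description.

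Presence of SRSF1 and of SRSF2 went together. Of the SRSF1 regions 72.7% also listed SRSF2, and of the SRSF2 regions 55.0% also listed SRSF1. The odds ratio of the co-listing was 3.83 (3.70 to 3.96), and 3.94 without chromosome 11. It was 2.47 within H3K4me1-only regions, 2.51 within regions with both marks and 3.53 within H3K4me3-only regions. Within groups of regions with the same number of partner factors the odds ratio was 1.35, and 1.40 without chromosome 11. By either measure, the odds ratio or that within groups, the pair ranked 60 of the 136 pairs of factors, while the ATPase RUVBL2 with the splicing-associated protein SAP18 ranked first, at 9.14 and 3.01.

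The number of partners tracked the presence of both splicing factors closely. At regions with none of the 15 partners, SRSF1 was listed at 7.68% and SRSF2 at 16.4% of 11528 regions. With 8 partners the shares were 65.8% and 80.4% of 3608 regions, and with 14 partners 96.6% and 97.1% of 558 regions. At each number of partners up to 14, SRSF2 was listed more often than SRSF1. Without chromosome 11 both shares with 14 partners were 96.9%. Regions with both factors carried on average 7.78 ± 3.45 partners (SD over regions), regions with SRSF1 alone 4.40 ± 3.11, with SRSF2 alone 4.24 ± 3.08 and with neither 1.75 ± 2.14. The difference of 0.163 between SRSF1 alone and SRSF2 alone turned to -0.185 when a log2 enrichment of 1 or more was asked of the splicing factors. At least 10 partners were found at 35.1% of regions with both, 7.41% with SRSF1 alone, 6.37% with SRSF2 alone and 0.720% with neither.

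**Figure D2:**
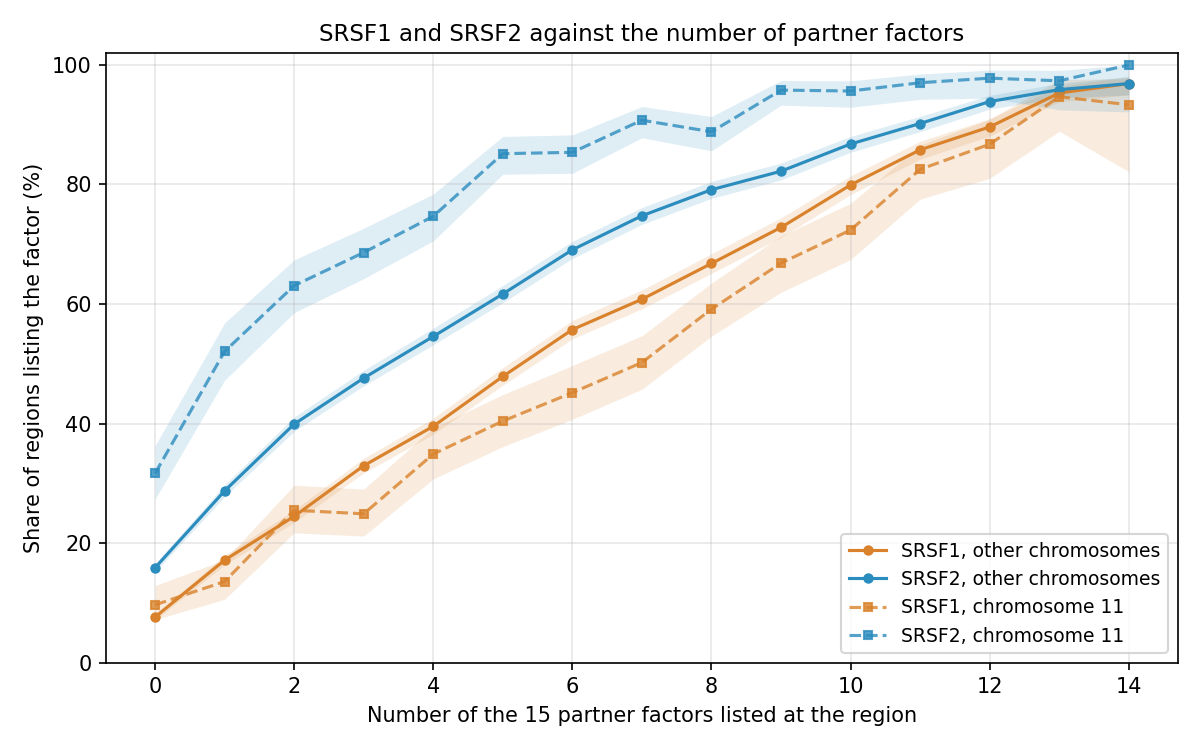
Lines give the share of regions (%) that list SRSF1 or SRSF2 against the number of the 15 partner factors at the region, up to 14, for chromosome 11 (dashed) and the other chromosomes (solid), with shaded Wilson 95% intervals. Both shares climb with the number of partners, and the SRSF2 line of chromosome 11 lies above that of the other chromosomes throughout.

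The partners were grouped by complex. Of the splicing-associated proteins, SAP18, a subunit of a complex deposited on spliced RNA that also acts with the Sin3 deacetylase, was listed at 72.8% of regions with both factors, 40.6% with SRSF1 alone, 42.7% with SRSF2 alone and 16.1% with neither, against 42.1% of all regions. PHF5A, a subunit of the SF3b splicing complex, was listed at 34.1%, 22.0%, 17.4% and 8.74% of these sets, against 19.8% of all regions. Measured by the overlap of lists, SAP18 was the closest of the 15 partners to either splicing factor. Regions shared with SAP18 were a fraction of 0.499 of all regions with SAP18 or SRSF2 and 0.460 of those with SAP18 or SRSF1, beside 0.456 for SRSF1 with SRSF2. This fraction depends on list length, and SAP18 had the longest list of the 15, with 28497 regions. By odds ratio SAP18 was not the closest. With SRSF2, BAF155 stood at 5.37 and SAP18 at 5.16. With SRSF1, RUVBL2 stood at 5.05, RUVBL1 at 4.85 and SAP18 at 4.80. SAP18 was shared at 64.0% of SRSF1 regions and 59.3% of SRSF2 regions, which are 62.1% and 75.9% of the SAP18 list. PHF5A was shared at 30.8% of SRSF1 regions and 26.6% of SRSF2 regions, which are 63.4% and 72.2% of the PHF5A list.

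Among the Mediator subunits, which link enhancer-bound factors to RNA polymerase II, MED1 was listed at 58.1% of regions with both, MED12 at 41.7% and SUR2 at 57.8%. The same proteins were listed at 11.8%, 10.5% and 10.2% of regions with neither, and at 32.6%, 24% and 31.4% of all regions. RUVBL1 and RUVBL2, ATPases of several remodelling complexes, were listed at 59.3% and 68.8% of regions with both and at 10.4% and 14.1% with neither, against 31.3% and 38.5% of all regions. SSRP1, part of the FACT histone chaperone, was listed at 60.4% and 12.2%, against 34% of all regions. PHRF1, a protein with a PHD and a RING finger, was listed at 64.2% and 13.8%, against 36.6%.

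The nucleosome remodellers came next. Of the BAF complex, BAF155, a core subunit, was listed at 51.5% of regions with both splicing factors and 7.17% with neither, a ratio of 7.18 that was the highest of the 15 partners. BRG1, an ATPase of the same complex, was listed at 32.4% and 8.14%. All regions listed them at 26.1% and 18.7%. The odds ratios of BAF155 were higher with RUVBL2 (8.28) and SAP18 (8.26) than with SRSF2 (5.37) or SRSF1 (4.67). Of the ISWI remodellers, the ATPase SNF2H was listed at 68.3% and 15.3%, and its partner subunit BAZ1A at 39.8% and 9.03%, against 39.8% and 22.8% of all regions. Cohesin's SMC3 was listed at 58.2% and 19.6%, against 36.9%. WSTF, another ISWI partner, differed least between the sets, at 10.99% with both, 10.8% with SRSF1 alone, 9.37% with SRSF2 alone and 7.84% with neither, against 9.47% of all regions. The odds ratios of WSTF with every other factor were likewise the lowest of all pairs.

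Each of the 15 partners was listed most often at regions with both factors, and 14 of them on each of the 19 autosomes. WSTF was the exception, highest at regions with both on 8 of the 19. Leaving chromosome 11 out changed SNF2H most, by -2.10 points at regions with both and by -4.20 points at regions with SRSF2 alone. Within regions that carried both H3K4 marks, WSTF was listed at 12.2% (10.8 to 13.8) of regions with SRSF1 alone and at 10.2% (9.66 to 10.8) of regions with both.

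**Figure D3:**
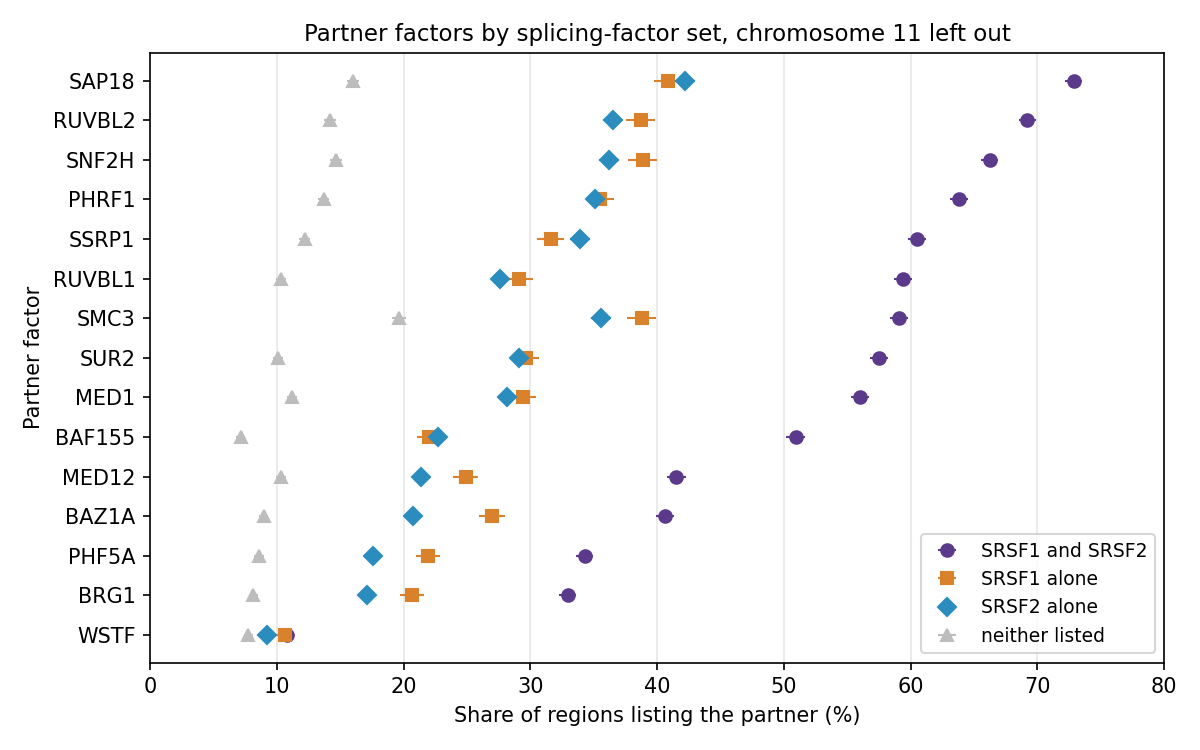
Points give the share of regions (%) listing each partner factor at regions with both splicing factors, SRSF1 alone, SRSF2 alone or neither, chromosome 11 left out, with Wilson 95% intervals. For each partner but WSTF the regions with both lie far to the right of the others, while SRSF1 alone and SRSF2 alone lie close together.

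Partners were also compared at a fixed number of other factors. For SRSF2 the largest odds ratios within such groups were with SSRP1 at 1.73, BAF155 at 1.73, SAP18 at 1.70, SNF2H at 1.61 and MED1 at 1.59. Those of SSRP1 rest on a single SSRP1 library. For SRSF1 they were with RUVBL2 at 1.56, RUVBL1 at 1.498 and BAZ1A at 1.47. Without chromosome 11 the largest for SRSF2 were SSRP1 at 1.74, SAP18 at 1.71, BAF155 at 1.64, SUR2 at 1.53 and RUVBL2 at 1.51, with MED1 at 1.40 and SNF2H at 1.41. For SRSF1 they were then RUVBL2 at 1.55, RUVBL1 at 1.49 and SNF2H at 1.45, with BAZ1A at 1.42. With all chromosomes, BAZ1A with SRSF2 stood at 1.01 and BRG1 with SRSF2 at 1.01, beside 1.30 for BRG1 with SRSF1. The splicing protein PHF5A stood at 1.36 with SRSF1 and 1.05 with SRSF2. WSTF stood at 1.08 with SRSF1 and 0.954 with SRSF2.

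With the H3K4 classes pooled, regions with SRSF1 alone and SRSF2 alone differed by at most 7.10 percentage points in any partner. BAZ1A was listed at 26.96% (26.0 to 28.0) of regions with SRSF1 alone and 19.9% (19.3 to 20.5) with SRSF2 alone, which was the largest difference of the 15. The same direction was seen on 19 of 19 autosomes. PHF5A differed by 4.65 points, BRG1 by 4.22, MED12 by 3.49 and SMC3 by 3.27, all higher with SRSF1 alone. MED12 was higher there on 19 of 19 autosomes, BRG1 on 18, PHF5A on 17 and SMC3 on 15. Within regions with both marks the differences were wider for BAZ1A at 14.2 points, BRG1 at 8.59 and PHF5A at 8.23. SSRP1 went the other way, at 31.6% with SRSF1 alone and 34.3% with SRSF2 alone, and was higher with SRSF1 alone on 3 of 19 autosomes.

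Chromosome 11 and the make-up of the regions moved these differences. Of the 15 partners, 8 were listed more often with SRSF1 alone than with SRSF2 alone, and 12 when chromosome 11 was left out. The difference for MED1 went from -2.37 to 1.22 points, and that for SNF2H from -0.946 to 2.63. With H3K4 class and region width held equal, and without chromosome 11, 10 of the 15 were higher with SRSF1 alone. The difference for BAZ1A was then 2.98 points, for SMC3 3.84, for RUVBL2 3.06, for PHF5A 1.83, for BRG1 0.921 and for SSRP1 -1.31. When a log2 enrichment of 1 or more was asked of the splicing factors, BAZ1A differed by 6.67 points and BRG1 by 4.69. PHF5A then differed by 4.60, MED12 by 2.41, WSTF by 1.55 and SMC3 by 0.316, all higher with SRSF1 alone. The other partners were higher with SRSF2 alone: MED1 at -6.04, SSRP1 at -5.90, BAF155 at -5.32, SAP18 at -4.99 and PHRF1 at -4.36. SUR2 stood at -3.99, SNF2H at -3.46, RUVBL1 at -2.82 and RUVBL2 at -1.84.

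Regions with SRSF1 alone were the narrowest. Their median width was 455 bp (quartiles 268 and 1148), against 782 bp (320 and 1820) with SRSF2 alone, 992 bp (386 and 1890) with both and 738 bp (309 and 1703) with neither. Without chromosome 11 the medians were 466, 732, 999 and 753 bp. The order of the other sets depended on the H3K4 class. In the order SRSF1 alone, SRSF2 alone, both and neither, the medians were 378, 535, 418 and 660 bp at H3K4me1-only regions, 547, 1195, 1169 and 987 bp at regions with both marks, and 1253, 1449, 1513 and 1792 bp at H3K4me3-only regions. The quartiles of all sets overlapped. Across 4 equal groups of all regions by width, SRSF1 alone fell from 15.7% of the narrowest, 181 to 320 bp, to 6.22% of the widest, 1724 bp and more. SRSF2 alone stood at 24.3% and 25.7% of the same groups.

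Strength went with narrow regions and with many partners. From the lowest to the highest of 4 equal groups of SRSF1 enrichment, the median width dropped from 1292 to 372 bp and the mean number of partners went from 5.09 to 8.18. For SRSF2 the median width dropped from 1191 to 498 bp and the partners went from 4.22 to 8.22. Spearman's rho of enrichment with width was -0.36 for SRSF1 and -0.24 for SRSF2, and with the number of partners 0.32 and 0.41. How the enrichment was averaged over a region is not given in the sources used here, so strength and width cannot be told apart.

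Co-listing also tracked SRSF2 strength. SRSF1 was listed at 40.1% of SRSF2 regions in the lowest such group of SRSF2 enrichment and at 69.5% in the highest. In the other direction, SRSF2 was listed at 63.6% and 76.0% of SRSF1 regions. The share of regions with H3K4me1 only went from 58.4% to 34.0% across the groups of SRSF2 and from 49.9% to 35.9% across those of SRSF1. Across the same groups H3K27ac went from 71.5% to 82.6% for SRSF2 and from 76.7% to 80.03% for SRSF1. Where H3K27ac was listed, its enrichment had a Spearman's rho of 0.05 with the enrichment of either splicing factor.

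H3K27ac was listed at most regions with both factors. Its share was 85.7% (85.2 to 86.2) with both, 68.2% (67.4 to 68.9) with SRSF2 alone, 63.1% (62.0 to 64.2) with SRSF1 alone and 39.0% (38.3 to 39.6) with neither, against 62.6% of all regions. Without chromosome 11 the shares were 85.9%, 67.7%, 63.7% and 39.2%. Within H3K4me1-only regions they were 70.1%, 56.8%, 51.9% and 32.6% in the same order, and within regions with both marks 91.97%, 87.4%, 82.8% and 75.9%. The H3K4me3-only regions had 94.6% with both, 87.4% with SRSF2 alone, 87.9% with SRSF1 alone and 81.6% with neither. The difference between SRSF1 alone and SRSF2 alone was -5.05 points in all, and -0.633 with 4 width groups held equal. At a log2 enrichment of 1 or more for the splicing factors, regions with both exceeded those with SRSF2 alone by 10.3 points, against 17.5 as listed.

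The deposited lists of enhancers divide H3K4me1-only regions into active, with an H3K27ac log2 enrichment of at least 1, and poised. The SRSF1 and SRSF2 entries are among the 13 names that admit a region to either list, so every H3K4me1-only region with SRSF1 or SRSF2 was in a list by construction. Of the 6200 regions with both, 3439 were active (55.5%, 54.2 to 56.7). The active share was 41.1% of 10315 regions with SRSF2 alone, 37.1% of 4948 with SRSF1 alone, and 28.1% of the listed regions with neither, which were 2980 active and 7616 poised. Over all listed regions it was 39.0%. Without chromosome 11 these shares were 55.7%, 40.4%, 37.6% and 28.3%. Of the active list 27.5% carried both splicing factors, and of the poised list 14.1%, against 14.8% of all H3K4me1-only regions, listed or not. The 9760 regions in no list all had neither splicing factor. Counting them, 21.1% of the 20356 H3K4me1-only regions with neither had an H3K27ac log2 enrichment of at least 1.

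SRSF2 was listed more often on chromosome 11 than on any other autosome. There it was listed at 78.0% of 5440 regions, against 46.0% to 57.2% on the other 18 autosomes, of which chromosome 7 was highest. SRSF1 was listed at 44.9% of chromosome 11 regions, within the range of 35.8% to 45.3% of the others. Both factors were found at 39.3%, SRSF1 alone at 5.66% and SRSF2 alone at 38.8% of chromosome 11 regions. The gap was present in each H3K4 class: SRSF2 stood at 64.8% of H3K4me1-only regions (32.0% to 42.9% elsewhere), 94.9% of regions with both marks (72.6% to 81.6%) and 92.8% of H3K4me3-only regions (65.0% to 75.2%). SRSF1 stood at 31.3% of H3K4me1-only regions, above the 22.0% to 30.6% elsewhere, at 63.8% of regions with both marks (61.8% to 68.8%) and at 54.8% of H3K4me3-only regions (54.6% to 66.4%). At a log2 enrichment of 1 or more, SRSF1 on chromosome 11 was above the other autosomes at H3K4me1-only regions (14.7% against at most 11.4%) and at regions with both marks (41.24% against at most 33.2%).

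The gap ran along the whole chromosome. In windows of 20 Mb the SRSF2 share lay between 68.6% and 86.0%, each above the highest other autosome. The median SRSF2 log2 enrichment was 1.07 on chromosome 11 and 0.91 on the other autosomes together, while that of SRSF1 was 1.03 and 0.95. At regions with none of the 15 partners SRSF2 was listed at 31.6% (27.3 to 36.3) on chromosome 11 and 15.9% (15.2 to 16.6) elsewhere, and SRSF1 at 9.66% (7.18 to 12.9) and 7.60% (7.12 to 8.11). With 5 partners SRSF2 stood at 85.2% (81.7 to 88.0) on chromosome 11 and 61.7% (60.2 to 63.1) elsewhere. SRSF1 then stood at 40.4% (36.1 to 44.8) and 47.9% (46.4 to 49.4). The mean number of partners was itself higher on chromosome 11, at 5.70 against 4.33 elsewhere. Regions with equal numbers of partners there and elsewhere therefore need not be alike.

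Of the 15 partners 11 were listed most often on chromosome 11 among the autosomes. The excess over the highest of the others ran from 0.838 (WSTF) to 26.98 points (SNF2H). These shares were not adjusted for H3K4 class. H3K4me1 only was carried by 55.4% of chromosome 11 regions, against 56.8% (chromosome 7) to 67.4% (chromosome 16) on the other autosomes. SNF2H was listed at 68.6% of chromosome 11 regions against 32.1% to 41.6% on the other autosomes, MED1 at 60.1% against 25.3% to 35.7%, and BAF155 at 37.6% against 20.9% to 30.8%. H3K27ac, at 68.9%, and RUVBL2, SMC3, BAZ1A and BRG1, at 43.4%, 37.1%, 21.5% and 17.8%, lay within the range of the other autosomes. The copy number of chromosome 11 in these cells and the input level there were not tested.

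The X chromosome held 643 regions, of which 13.4% carried H3K4me1 only. SRSF1 was listed at 59.9% and SRSF2 at 65.6% of them, with no adjustment for class.

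**Figure D4:**
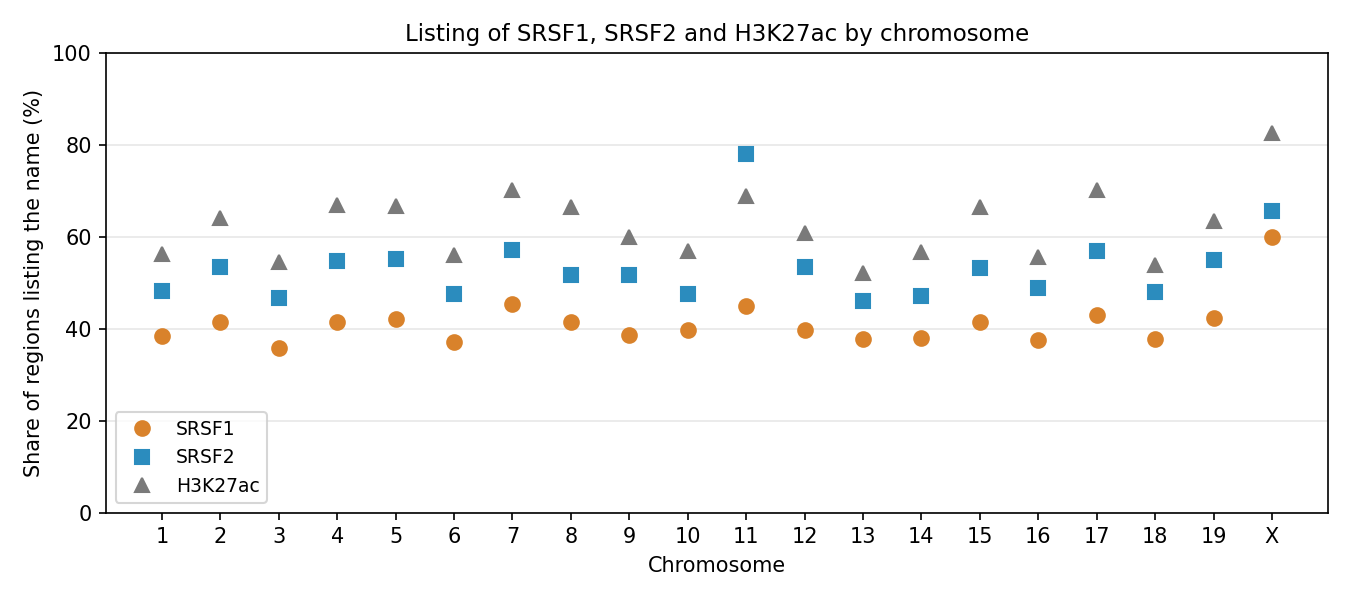
Points give the share of regions (%) on each chromosome that list SRSF1, SRSF2 or H3K27ac. On chromosome 11 SRSF2 lies above H3K27ac, at 78.0% against 68.9%, and on the other chromosomes shown it lies between SRSF1 and H3K27ac.

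Each factor was listed more often at the nearest other region where the region itself listed it. The nearest other region listed SRSF1 in 44.9% of cases when the region itself did, and in 36.2% when it did not. For SRSF2 the shares were 58.7% and 46.3%, and 55.9% and 45.4% without chromosome 11. Neighbouring regions lay at least 1001 bp apart, and these shares were not adjusted for H3K4 class.

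The regions with the highest values were narrow and rich in partners. Coordinates are those of mouse build mm9, and no gene annotation of that build was used here. The highest sum of both enrichments was at chr14:8077078-8077405, with a log2 enrichment of 2.40 for SRSF1 and 2.93 for SRSF2, both H3K4 marks and 13 partners. It was followed by chr1:4239814-4239994, with 2.76 and 2.50, H3K4me3 only, 9 partners and no entry for H3K27ac, and by chr13:16192343-16192549, with 2.50 and 2.76, both marks and 12 partners. Among H3K4me1-only regions the highest was chr16:90496938-90497190, an active enhancer with 1.69, 2.16 and 7 partners.

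The highest SRSF1 values without SRSF2 were 2.11 at chr3:10790120-10790355, 2.11 at chr13:12742429-12742611 and 2.04 at chr17:56552736-56552986. The highest SRSF2 values without SRSF1 were 2.80 at chr5:58391854-58392037, 2.78 at chr2:35708451-35708672 and 2.73 at chr2:30366380-30366598. All of these regions were at most 328 bp wide, and none was on chromosome 11.

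A further readout came from R1 ES cells of strain 129SV, in which H3K4me1 was measured in wild-type cells and in cells with a double catalytic-dead form of MLL3/4, the methyltransferases of H3K4me1 at enhancers. These cells were kept on feeder cells in serum-free medium with leukemia inhibitory factor. The labels give 2 libraries per line, and the peaks carry 1 fold enrichment per line, so there is no replicate check. Whether the catalytic-dead line is a single clone is not given in the sources used here. SRSF1 and SRSF2 were not analysed here in R1 cells: their regions are those of 129/Ola cells, and 57081 R1 peaks overlapped a region. Over these peaks, the fold enrichment of H3K4me1 was at least 2-fold lower in catalytic-dead cells at 21.5% and at least 2-fold higher at 18.1%. Fold enrichment is a relative measure, so a change of the mark and a change of scale between the lines cannot be told apart.

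At H3K4me1-only regions the medians of the sets lay close together. As a log2 ratio, catalytic-dead over wild type, the median was -0.75 with both splicing factors, -0.78 with SRSF1 alone, -0.79 with SRSF2 alone and -0.75 with neither, and -0.74, -0.78, -0.78 and -0.76 without chromosome 11. At least 2-fold lower were 38.8%, 39.8%, 40.3% and 40.1% of these peaks. Median fold enrichment in wild-type cells lay between 3.15 and 3.22 in the 4 sets, and in catalytic-dead cells between 1.919 and 1.956. At H3K4me3-only regions the medians lay between 1.07 and 1.08. These levels rest on the R1 values having been put back in step with the positions by chromosome. In the deposited layout the medians were -0.24, -0.33, -0.26 and -0.27 at H3K4me1-only regions and between -0.06 and 0.09 at H3K4me3-only regions.

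At regions with both marks the fold enrichment of H3K4me1 was higher in catalytic-dead cells, with the highest median at regions with both splicing factors. Whether the mark itself was gained there was not tested. The median log2 ratio was 0.68 (0.66 to 0.69, counting error) with both, 0.55 with SRSF1 alone, 0.45 (0.42 to 0.47) with SRSF2 alone and 0.52 with neither. Without chromosome 11 these medians were 0.69, 0.55, 0.47 and 0.52. At least 2-fold higher were 25.2%, 20.1%, 17.1% and 20.5% of these peaks. The quartiles overlapped, at 0.18 and 1.003 with both and -0.10 and 0.86 with SRSF2 alone. The sets differed in their share of distal peaks, 43.0% with both, 56.6% with SRSF1 alone, 51.7% with SRSF2 alone and 52.3% with neither. Among distal peaks alone the medians were 0.35, 0.31, 0.16 and 0.25, and among proximal peaks 0.84, 0.81, 0.71 and 0.78. The order with both highest and SRSF2 alone lowest was seen in either group. Intervals of both and SRSF1 alone overlapped, at 0.32 to 0.38 and 0.27 to 0.38 among distal peaks. Among proximal peaks these intervals were 0.83 to 0.86 and 0.77 to 0.85. On chromosome 1, whose values the reordering leaves in place, the medians were 0.76 with both (535 peaks), 0.73 with SRSF1 alone (85), 0.33 with SRSF2 alone (195) and 0.41 with neither (116). In the deposited layout of all chromosomes the medians were -0.14, -0.21, -0.16 and -0.16 in that order, and both minus neither was 0.018, against 0.16. On chromosomes 1 and X together, whose values were not moved, the medians were 0.807 with both and 0.808 with SRSF1 alone.

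**Figure D5:**
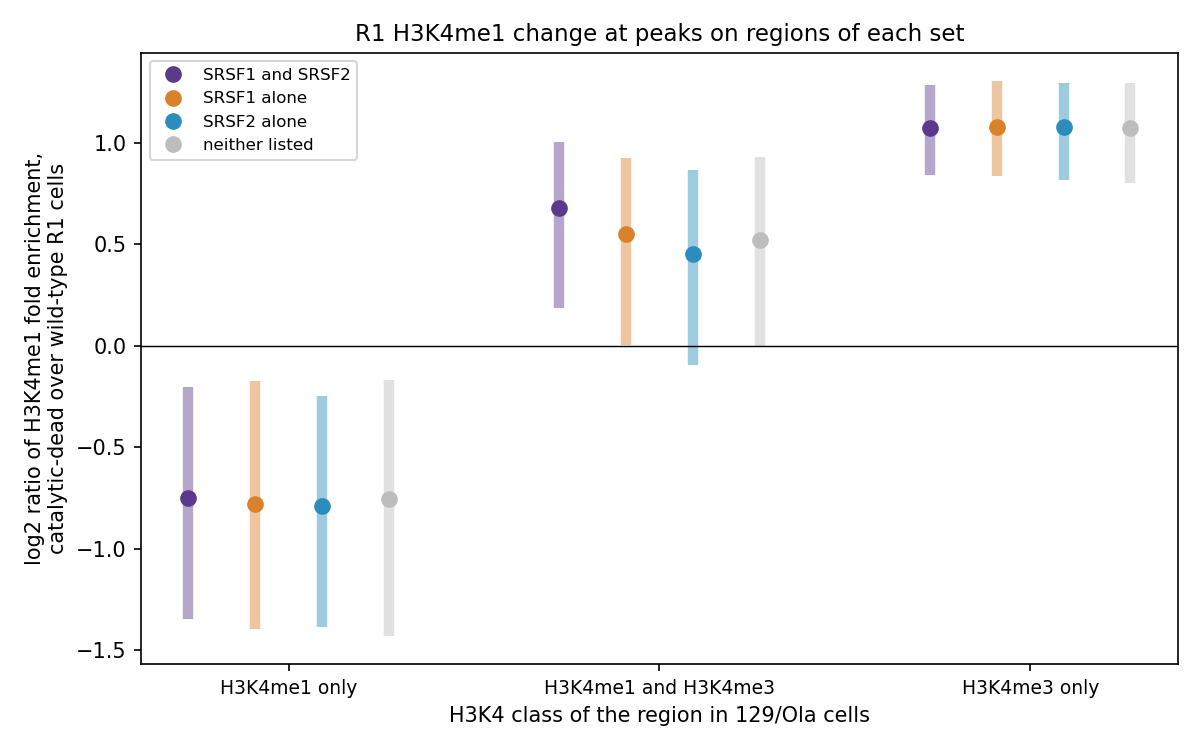
Points give the median log2 ratio of H3K4me1 fold enrichment, catalytic-dead over wild-type R1 cells, at peaks on regions of each class and set, and bars the quartiles. The 4 sets lie together at H3K4me1 only (-0.79 to -0.75) and H3K4me3 only, and spread from 0.45 to 0.68 at regions with both marks.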

How the data were processed

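Per the submitters' processing notes, the 129/Ola libraries were processed with Bowtie, Picard and MACS2 on build mm9, and the R1 libraries with BWA 0.7.13-r1126, deepTools 2.5.1 and 2.5.3, Picard 2.11.0 and MACS2 2.1.0.20150731. As to how peaks were called, regions merged and replicates pooled, the sources used here do not say. The region table deposited by the authors holds log2 enrichments, 1 per region and factor, in a table without a header whose unit was read here from the values. What the enrichment is relative to is not stated, and entries begin at 0.585. The table holds 31 names, of which 11 matched no 129/Ola library and were not used. The R1 table deposited by the authors gives a ratio, a fold enrichment (FE per the file headers), for each line.

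Regions were the unique positions of the table. Presence, shares, medians, odds ratios and Mantel-Haenszel odds ratios within groups of the number of other factors were computed with Python 3.11.15, pandas 2.3.3, numpy 2.4.6 and scipy 1.17.1, and figures with matplotlib 3.10.9. The scripts were tested on simulated data. Standardised shares weight 4 width groups, or class and width groups, as in all regions. Width quartiles, R1 peaks overlapping a region by 1 bp or more (bedtools 2.31.1) and a 2-fold change were used as descriptions. R1 values were put back in number order of the chromosomes, since width and wild-type fold enrichment had a Spearman's rho of 0.215 on chromosome 1 and a mean of 0.00253 on chromosomes 2 to 19 as deposited, against 0.253 after reordering. On chromosome X, whose values are in the same place under either layout, rho was -0.00637, so their order was not settled there. This order was chosen after the data were seen. The named regions are the 3 with the highest enrichment in each set (the sum of both values for regions with both) and, for regions with both, the highest of each H3K4 class. The members, partner lists and comparisons were chosen with earlier results of these data known. Depth is unknown, since no counts are in the tables used, and intervals cover counting error only.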

Additional observations from a re-analysis of the deposited data

How the results depend on the processing

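No paired analysis was possible because the tables give 1 value per factor, with no replicate numbers in their columns, and leaving out a replicate was not possible for the same reason. Values are differences in percentage points unless named otherwise, and the causes of the changes were not tested. Of 76 values of the 15 main results under other settings, 28 kept their sign and moved by less than the counting error, 39 kept it and moved by more, and 9 changed sign. Of these 9, 7 were R1 differences whose main value was below its counting error. For single partners these numbers were 42, 45 and 18 of 105, and the sign changes fell on MED1, PHRF1, RUVBL1, RUVBL2, SAP18, SNF2H, SUR2 and WSTF. The odds ratio of SRSF1 and SRSF2 within groups of the number of other factors without chromosome 11, the partner shares standardised to class and width without it, and the R1 values on chromosome 1 and without chromosome X, were chosen after seeing the data.

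At a log2 enrichment of 1 or more for the splicing factors, H3K4me1 only minus H3K4me3 only was -13.1 for SRSF1 (-32.6 as listed) and -16.4 for SRSF2 (-31.9), and both marks minus H3K4me3 only was 7.69 (6.22) and 11.7 (8.27). The odds ratio was 4.60 (3.83). As listed, it was 1.35 within groups of the number of other factors and 1.40 within them without chromosome 11. At a log2 of 1 or more, H3K27ac with both minus SRSF2 alone was 10.3 (17.5), the width of SRSF1 alone minus SRSF2 alone -259 bp (-327), and the median differences of both minus alone 0.034 (0.050) for SRSF1 and 0.12 (0.15) for SRSF2. The mean number of partners was 2.67 (3.54) for both minus SRSF2 alone and reversed to -0.185 (0.163) for SRSF1 alone minus SRSF2 alone, and RUVBL2 reversed to -1.84 (2.04). With H3K27ac at a log2 of 1 or more, its difference of both minus SRSF2 alone was 19.6.

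Within H3K4me1 only, both marks and H3K4me3 only, in that order, H3K27ac with both minus SRSF2 alone was 13.4, 4.60 and 7.12, the width difference -157, -648 and -196 bp, and the SRSF1 strength difference 0.034, 0.017 and 0.081. Mean partners for both minus SRSF2 alone were 1.95, 2.70 and 3.17. The SRSF2 strength difference was 0.091 within H3K4me1 only and 0.14 within H3K4me3 only. SRSF1 alone minus SRSF2 alone for partners was 0.381 within both marks. Within H3K4me3 only, SRSF1 alone minus SRSF2 alone reversed to 0.434 for H3K27ac (-5.05), 0.244 for MED1 (-2.37) and -1.03 for RUVBL2, and within H3K4me1 only to 0.129 for SAP18 (-2.14).

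With 4 width groups held equal, SRSF2 at H3K4me1 only minus H3K4me3 only was -30.8, H3K27ac was 16.01 for both minus SRSF2 alone and -0.633 for SRSF1 alone minus SRSF2 alone, mean partners were 3.41 for both minus SRSF2 alone, and WSTF reversed to -0.0093 (1.39). Without chromosome 11 the width difference was -266 bp, mean partners 3.62 for both minus SRSF2 alone and 0.262 for SRSF1 alone minus SRSF2 alone, and MED1 reversed to 1.22, or 0.553 when standardised to class and width.

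In R1 cells, the H3K4me1 log2 ratio of both minus neither at H3K4me1 only, both marks and H3K4me3 only was 0.0031, 0.16 and -0.00081. On chromosomes 1 and X, whose values were not moved, it was -0.057, 0.40 and 0.047, and on chromosome 1 alone -0.066, 0.35 and 0.040. Without chromosome X it was 0.0019, 0.16 and -0.0020. With peaks overlapped by 50% or more it was 0.095 at H3K4me1 only and 0.031 at H3K4me3 only, and in the deposited layout 0.018 at both marks and 0.034 at H3K4me3 only.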
